A study of Mus musculus with 10 samples.

Results

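The mouse aldo-keto reductase genes Akr1b7, Akr1b3, Akr1b8, Akr1b10 and Akr1a1 were followed in renin cells of the kidney. They were found by gene symbol in the deposited expression table. All 5 were present among its 32648 genes, and all 5 passed the filter on low counts that left 18825 genes for testing. The cells came from adult C57BL/6 mice that carry the Ren1c-YFP reporter, in which renin regulatory sequence drives yellow fluorescent protein. The mice were 8 to 12 weeks old and were taken 72 h after surgery. In the coarctation group (3 mice) the aorta was constricted between the origins of the right and the left renal artery. In the sham group (2 mice) the operation left the aorta unexposed and unconstricted. Living cells with yellow fluorescence were sorted from the cortex of each kidney, and 1000 cells per kidney gave 1 RNA-seq library, so that there are 4 groups (coarctation left, coarctation right, sham left and sham right) and 10 libraries. All groups carry the reporter. The series describes the mice of each surgery as biological replicates, and both kidneys of a mouse share its number.

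Aldo-keto reductases use NADPH to reduce aldehydes and ketones to alcohols. Akr1b7, first known from the vas deferens and the adrenal cortex, reduces the aldehyde released when the side chain of cholesterol is cleaved and can form prostaglandin F2alpha, and it is an established marker of renin cells. Akr1b3 is aldose reductase, which turns glucose into sorbitol, Akr1b8 and Akr1b10 encode aldose reductase-like enzymes, and Akr1a1 is aldehyde reductase, which reduces glucuronate on the path to ascorbate and is abundant in the proximal tubule.

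In GENCODE vM21 on GRCm38, Akr1b3 (chr6:34302434-34317478, minus strand), Akr1b8 (chr6:34354119-34368463, plus strand), Akr1b10 (chr6:34384218-34396950, plus strand) and Akr1b7 (chr6:34412334-34423142, plus strand) lie within 120.7 kb of chromosome 6. Each of these 4 genes has 10 exons in its main transcript and 948 coding bases before the stop codon. Akr1a1 lies apart on chromosome 4 (chr4:116636510-116651680, minus strand, 9 exons). The coding sequence of Akr1b7 was 89.2% identical to that of Akr1b10, 85.7% to Akr1b8, 73.0% to Akr1b3 and 63.4% to Akr1a1. A 60-base stretch (coding bases 352 to 411, counted from the start codon) is shown to let these close relatives be compared base by base. Among the stretches of this length that were searched, it had the most differences from Akr1b7 summed over the other cluster genes. The search took only stretches that began at a codon, aligned without gaps and lay inside 1 exon of each gene. Capitals mark bases that differ from Akr1b7.
Akr1b7: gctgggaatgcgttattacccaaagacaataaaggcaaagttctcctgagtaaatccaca
Akr1b10: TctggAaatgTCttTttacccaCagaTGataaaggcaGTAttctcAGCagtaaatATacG
Akr1b8: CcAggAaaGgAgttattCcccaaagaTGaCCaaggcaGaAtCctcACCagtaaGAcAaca
Akr1b3: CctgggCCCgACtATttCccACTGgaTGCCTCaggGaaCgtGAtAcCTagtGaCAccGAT
The stretches lie at chr6:34417283-34417342 for Akr1b7, chr6:34390055-34390114 for Akr1b10, chr6:34358131-34358190 for Akr1b8 and chr6:34310943-34311002 (minus strand) for Akr1b3. Akr1b10 differed from Akr1b7 at 17 of the 60 bases, Akr1b8 at 19 and Akr1b3 at 32.

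Elsewhere the genes share sequence, which bears on how reads could be assigned. Of the 31-base words of the main Akr1b7 transcript, 27.7% also occurred in another annotated gene, most of them in Gm13857, a transcribed pseudogene on the opposite strand that overlaps Akr1b7 (240 of 1251 words), followed by Akr1b10 (88 words). For Akr1b8 the share was 10.5% and for Akr1b10 14.4%, while Akr1a1 shared 0 of 1390 words. Akr1b3 shared 90.8% of its words, with the predicted genes Gm38056, Gm6644 and Gm6736 first. The level of Gm13857 was 3.40 to 10.8 TPM over the 10 libraries, against at least 1246 TPM for Akr1b7. Gm6644 held at most 1.48 TPM and Gm6736 at most 0.135 TPM, and no row was matched to Gm38056. How reads in shared stretches were divided is not known, so the counts of Akr1b3 are uncertain, and those of the other 3 cluster genes are so where they share words.

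Promoter sequence from RefSeq (GRCm38.p6, 250 bases before to 50 after the start of transcription) was matched for 4 of the 5 genes and for Ren1, the renin gene. Akr1b3 was not matched. The windows of Akr1b7, its closest relative Akr1b10 and Ren1 are shown because Akr1b7 and Ren1 are compared in the same libraries in what follows. Capitals mark the letters of a motif that was found on either strand.
Akr1b7: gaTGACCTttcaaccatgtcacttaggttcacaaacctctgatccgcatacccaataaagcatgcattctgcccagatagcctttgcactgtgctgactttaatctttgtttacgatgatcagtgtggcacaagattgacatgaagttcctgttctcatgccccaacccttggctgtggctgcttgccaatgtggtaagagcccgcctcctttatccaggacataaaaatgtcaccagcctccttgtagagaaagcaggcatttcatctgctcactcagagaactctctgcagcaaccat
Akr1b10: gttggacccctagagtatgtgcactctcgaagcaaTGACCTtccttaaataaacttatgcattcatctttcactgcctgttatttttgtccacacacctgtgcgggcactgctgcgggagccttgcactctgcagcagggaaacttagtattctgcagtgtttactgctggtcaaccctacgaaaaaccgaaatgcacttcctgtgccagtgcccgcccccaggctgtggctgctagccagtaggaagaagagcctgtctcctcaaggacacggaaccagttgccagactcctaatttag
Ren1: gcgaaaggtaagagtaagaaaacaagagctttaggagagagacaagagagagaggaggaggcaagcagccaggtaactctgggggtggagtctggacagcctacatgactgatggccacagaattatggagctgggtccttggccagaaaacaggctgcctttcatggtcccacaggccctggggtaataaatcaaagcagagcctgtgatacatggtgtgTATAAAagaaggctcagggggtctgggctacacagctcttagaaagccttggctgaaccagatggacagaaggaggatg
The windows are chr6:34412112-34412411 for Akr1b7, chr6:34383997-34384296 for Akr1b10 and chr1:133350424-133350723 for Ren1, all on the plus strand. Akr1b7 holds the nuclear receptor motif AGGTCA on the minus strand at -248 to -243 from the start, and Akr1b10 holds it on the same strand at -215 to -210. This motif occurs in 16.3% of the 32851 promoter windows. Ren1 holds the TATA box letters TATAAA at -29 to -24, and the Akr1b8 window holds them on the minus strand at -159 to -154, as against 13.6% of all windows. The cAMP response element TGACGTCA (1.79% of windows), its shorter core TGACG (20.8%), the NR5A site CAAGGTCA (1.56%), the antioxidant response core TGACNNNGC (12.4%), the tonicity core TGGAAA (21.4%) and the E-box CACGTG (7.15%) were searched on both strands and had no match in the windows of these 4 members or Ren1. TGACG is part of TGACGTCA, and AGGTCA is part of CAAGGTCA. In alignments with gaps, bases identical to the Akr1b7 window made up 55.0% of 300 for Akr1b10, 57.0% for Akr1b8 and 49.7% for Ren1. The bases paired in these alignments were 240, 249 and 254. By the same measure the Akr1a1 window, from another chromosome, had 52.0% with Akr1b10 and 51.0% with Ren1.

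The libraries held 20029817 to 32006229 estimated counts. Ren1, the defining gene of the labelled cell type, was among the 26 most abundant genes of every library (5450 to 48620 TPM). The summed level of 13 proximal tubule markers ranged from 928 to 10471 TPM, with the highest value in the left kidney of coarctation mouse 3, and none of the 13 was at 0 in every library. The summed level of 9 adrenal cortex markers, which belong to the other tissue known for Akr1b7, was 0.219 to 5.83 TPM. Without the mouse as a block, 0 genes passed in any of the 5 comparisons by edgeR, with 366 to 894 genes at an unadjusted p under 0.05. DESeq2 called 24 to 86 genes per comparison.

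Akr1b7 was the most abundant of the 5 genes in every library and was among the 136 most abundant genes of the whole table in each of them. It made up 54.9% to 91.3% of the summed TPM of the 5 genes. TPM is scaled to transcript length and library and so allows levels of different genes to be compared. Akr1a1 came next in all 10 libraries, at 594 to 1735 TPM. Akr1b3 (38.5 to 91.0 TPM) and Akr1b10 (35.7 to 82.6 TPM) did not have a fixed order, with Akr1b3 the higher in 5 of 10 libraries. Akr1b8 was the lowest throughout, at 0.261 to 22.1 TPM. The depth behind these levels was 48676 to 389235 estimated counts per library for Akr1b7 and 8 to 830 for Akr1b8. The level of Akr1b7 was 1.33 times that of Akr1a1 in the right kidney of coarctation mouse 1 and 13.1 times in the right kidney of sham mouse 2. The order of Akr1b7 and Akr1a1 was the same in every library although their ratio was not.

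**Figure D1:**
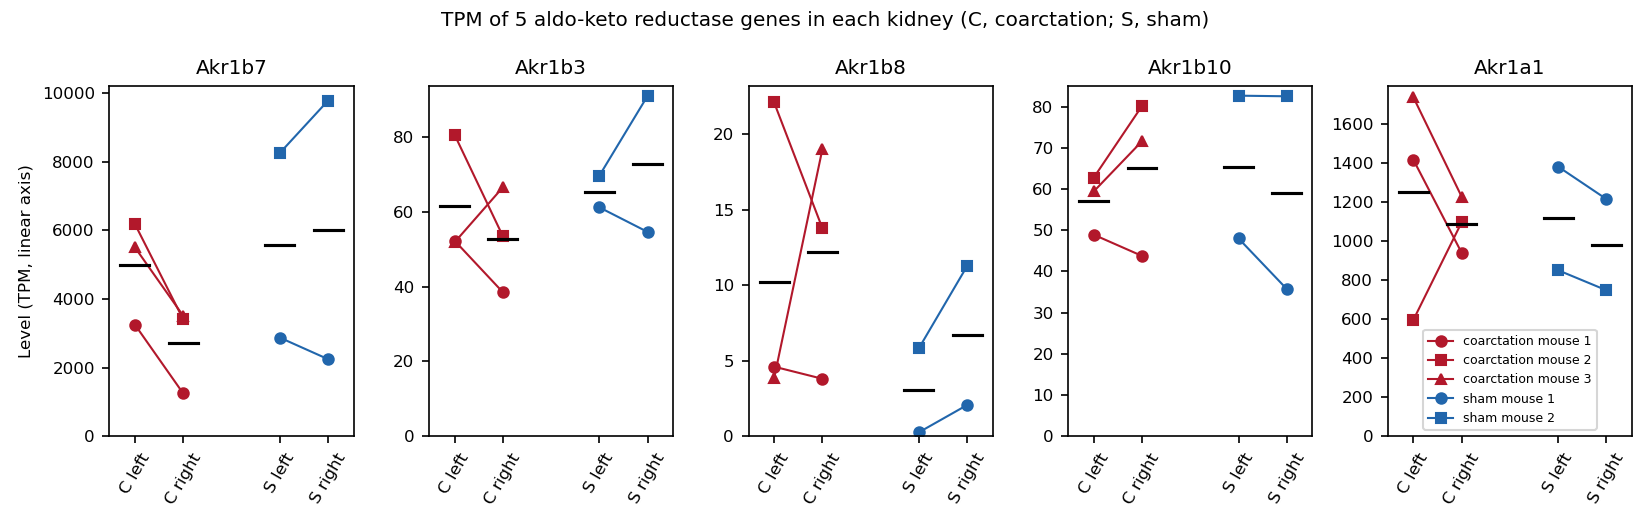
Level of each gene in each kidney (TPM, linear axes from 0, a separate scale per gene), with a line joining the left (C left, S left) and right (C right, S right) kidney of a mouse and a black bar at the group mean. Akr1b7 is lower in the right kidney of each of the 3 coarctation mice, and the other 4 genes show lines in both directions or lie close together.

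Akr1b7 was lower in the right than in the left kidney of every coarctation mouse. Its level was 3249 TPM on the left and 1246 TPM on the right in mouse 1. The values were 6181 and 3405 TPM in mouse 2, and for mouse 3 they were 5503 and 3508 TPM. The group means were 4978 ± 1535 TPM on the left and 2720 ± 1277 TPM on the right (SD, n = 3). The groups overlap, because the left kidney of mouse 1 lies below the right kidneys of the other two mice. The changes within mice 1, 2 and 3 were -1.38, -0.86 and -0.65 on the log2 TPM scale, on average 1.95-fold lower on the right. Akr1b7 was the only member of the 5 that was lower on the right in 3 of 3 coarctation mice, a pattern met by 13.5% of all tested genes.

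The edgeR quasi-likelihood test that treats the 10 kidneys as independent did not call Akr1b7 (log2 change -1.06, SE 0.55, 95% interval -2.24 to 0.13, Benjamini-Hochberg adjusted p = 1), nor any other member, and the share of all genes called was 0%. With the mouse as a block the estimate was -1.12 with an SE of 0.15 (edgeR adjusted p = 0.0734). That fit called 0.0266% of all genes, and 0 of the 5 members. Akr1b7 was at rank 13 of 18825 genes by p in it, and 3.30% of all genes were lower there at an unadjusted p under 0.05. Of the alternatives, edgeR without the filter on low counts was the one that called Akr1b7 (log2 change -1.06, adjusted p = 0.0471), in a fit that called 112 genes. Without the right kidney of coarctation mouse 1 the log2 change was -0.65.

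Ren1 and the reporter EYFP, which marks the sorted cells, were lower on the right by more than Akr1b7 in each of the 3 mice. Ren1 was at 29285, 48620 and 36877 TPM in the left and 5450, 11982 and 10836 TPM in the right kidneys of mice 1, 2 and 3. Left and right groups of Ren1 do not overlap. EYFP was at 413, 959 and 369 TPM on the left and 60.6, 174 and 164 TPM on the right. Of the 6 genes listed as renin cell markers, these included, 4 estimates were lower on the right and 2 higher. Gja5 was at 10.9 to 22.0 TPM on the left and 4.44 to 13.5 TPM on the right, and Crip1 at 12738 to 22124 and 10455 to 16446 TPM. Gja4 was at 29.5 to 49.3 and 17.6 to 68.2 TPM, and Rgs5 at 395 to 583 and 532.5 to 820 TPM. In bulk libraries such as these, fewer renin cells among those sorted and less RNA of a gene per renin cell cannot be told apart. Markers of other cells were compared between the same kidneys, and 0 of them were called. The summed level of 13 markers of the loop, distal tubule and collecting duct was 353, 218 and 137 TPM in the left and 1213, 225 and 345 TPM in the right kidneys of mice 1, 2 and 3 (10 of 13 estimates higher on the right). That of 12 leukocyte markers was 96.1, 474 and 70.7 TPM on the left and 945, 425 and 297.5 TPM on the right (9 of 12 higher), so that this sum went the other way in mouse 2. Single markers differed from the sum. H2-Aa was higher on the right in 3 of 3 mice, and S100a9 was lower in 2 of 3. The summed level of 6 podocyte markers was 50.4 to 75.2 TPM on the left and 38.0 to 45.5 TPM on the right (6 of 6 lower, median log2 change -1.19). For proximal tubule markers 12 of 13 estimates were lower on the right. Their summed level was 1962, 1541 and 10471 TPM on the left and 2202, 3073 and 4779 TPM on the right. The sum was thus higher on the right in mice 1 and 2 and lower only in mouse 3. Kap, 1 of the 13, weighs heavily in it, at 799 to 9094 TPM on the left and 1545.5 to 3784 TPM on the right. Miox, another of the 13, was lower on the right in mice 1 and 3 and higher in mouse 2. The part of the cells of these marker lists in the difference of Akr1b7 was not tested.

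**Figure D2:**
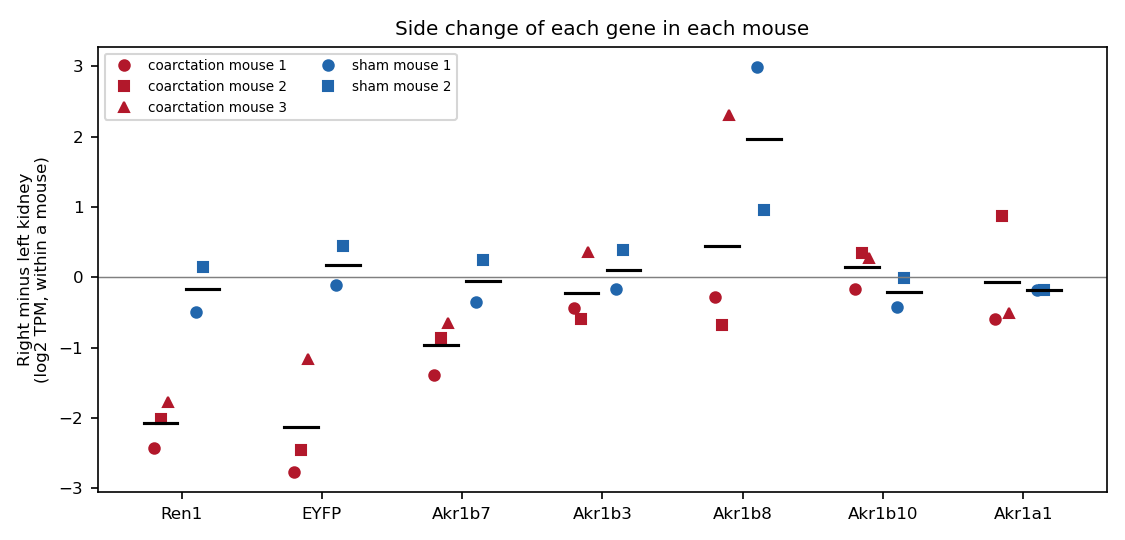
Difference between right and left kidney within each mouse (log2 TPM) for Ren1, the EYFP reporter and the 5 genes, with a black bar at the mean of 3 coarctation or 2 sham mice. Akr1b7 lies between -1.38 and -0.65 in coarctation mice and between -0.36 and 0.25 in sham mice, and Ren1 between -2.43 and -1.77 in coarctation mice.

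Relative to renin message, Akr1b7 was higher in the right kidney of each coarctation mouse. Ren1 itself changed by -2.07 on average there (log2 TPM), against a median edgeR log2 change of 0.020 over all genes. A gene with no side change therefore also rises relative to Ren1, and by more than Akr1b7. The share of all genes with a rise in 3 of 3 mice was not counted. The TPM of Akr1b7 was 11.1% of that of Ren1 in the left and 22.9% in the right kidney of mouse 1. The ratios were 12.7% and 28.4% in mouse 2, and for mouse 3 they were 14.9% and 32.4%. In sham mouse 1 the ratio was 9.42% on the left and 10.3% on the right, and in sham mouse 2 it was 18.8% and 20.1%. The 3 right kidneys with coarctation thus lie above the other 7 libraries. The log2 change of the ratio from left to right was 1.04, 1.16 and 1.12 in the coarctation mice (mean 1.11 ± 0.060, SD, n = 3, or 2.15-fold) and 0.13 and 0.098 in the sham mice (0.11 ± 0.023, SD, n = 2). The difference between the surgeries was 0.99 (exact permutation test over the 5 mice, two-sided, p = 0.1, which is the smallest p that 3 against 2 mice allow).

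The change of the ratio was also close in size between the coarctation mice. Over all genes, 0.499% had a side change relative to Ren1 that varied as little as that of Akr1b7 or less between the 3 mice. Genes with fewer counts than Akr1b7 vary more through sampling alone, and the share among genes of like abundance was not counted. This measure was not planned. With EYFP in place of Ren1, an alternative added after the data were seen, the log2 change of the ratio was 1.39, 1.60 and 0.52 in coarctation mice and -0.25 and -0.20 in sham mice (difference 1.40, exact permutation test, two-sided, p = 0.2). The other members of the cluster and Akr1a1 had larger increases relative to Ren1, with mean side changes of their own between -0.22 and 0.45 on the log2 TPM scale. The mean log2 change of the ratio to Ren1 in coarctation mice was 1.85 ± 0.37 for Akr1b3, 2.52 ± 1.41 for Akr1b8, 2.23 ± 0.17 for Akr1b10 and 2.00 ± 0.83 for Akr1a1 (SD, n = 3). In sham mice it was 0.28 ± 0.059, 2.14 ± 1.89, -0.044 ± 0.15 and -0.015 ± 0.45 in the same order (SD, n = 2), so that for Akr1b8 the surgeries differed by 0.38 (exact permutation test, two-sided, p = 0.8). For Akr1b3, Akr1b10 and Akr1a1 the differences were 1.57, 2.27 and 2.02 (each p = 0.1 by the same exact test, the smallest possible). These 4 ratios were also added after the data were seen.

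**Figure D3:**
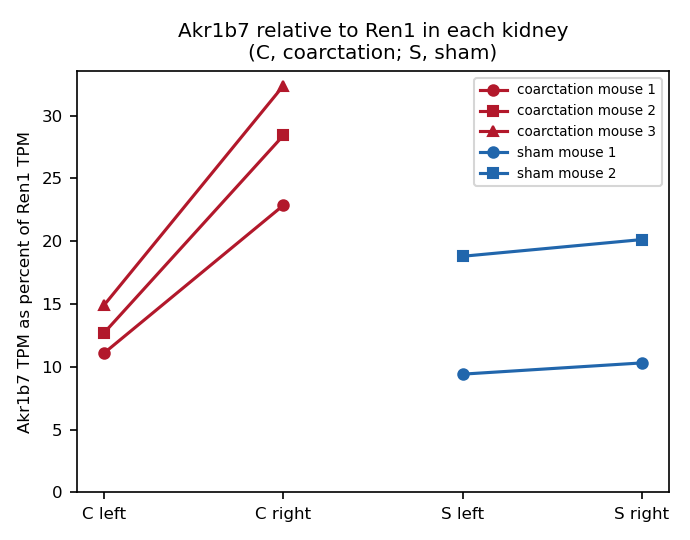
Level of Akr1b7 as a percent of that of Ren1 (both in TPM, axis from 0) in the left and right kidney of each mouse, joined by a line. The coarctation mice go from 11.1% to 14.9% on the left to 22.9% to 32.4% on the right, and the sham mice from 9.42% and 18.8% to 10.3% and 20.1%.

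Without a constriction, Akr1b7 had no common direction between the sides. In sham mouse 1 it was at 2874 TPM on the left and 2245 TPM on the right, and in sham mouse 2 at 8252 and 9780 TPM. The mice differed more than the kidneys: both kidneys of sham mouse 2 held the highest levels of the series and both of sham mouse 1 lay below the left kidney of every coarctation mouse. The edgeR estimate for right against left was 0.11 (SE 0.67, 95% interval -1.33 to 1.55, adjusted p = 1) and turned to -0.095 with the mouse as a block, with 0% of genes called in either fit. Without the right kidney of sham mouse 2 it was -1.53, and without the left kidney of that mouse 1.19.

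The side change of Akr1b7 was lower in each coarctation mouse than in each sham mouse, which held for 10.1% of all tested genes and for none of the other 4 members. The difference between the side changes was -1.17 (SE 0.86, 95% interval -3.03 to 0.70) without the block and -1.03 (SE 0.24) with it, and did not pass (edgeR adjusted p = 1 in both fits, unadjusted p = 0.00218 with the block). No gene was called by either fit (0%), and 2.06% of genes were lower in the coarctation mice at an unadjusted p under 0.05 with the block. Without the right kidney of sham mouse 2 the difference was 0.47.

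Between the surgeries, the left kidneys gave an estimate for Akr1b7 near 0 with a wide interval (coarctation minus sham log2 change 0.042, SE 0.61, 95% interval -1.27 to 1.36, edgeR adjusted p = 0.993). It was 1.12 without the left kidney of sham mouse 2 and -0.56 without that of sham mouse 1. In the right kidneys the level was 1246 to 3508 TPM with coarctation and 2245 and 9780 TPM after sham surgery, so that the groups overlap. For Akr1b7 the log2 change on the right was -1.13 (SE 0.60, 95% interval -2.42 to 0.17, edgeR adjusted p = 0.995). Without sham mouse 2 it was 0.52, in the opposite direction. Coarctation libraries lay wholly below sham libraries on the right for 9.18% of all genes and for 0 of the 5 members. The share of all genes called was 0% on either side.

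**Figure D4:**
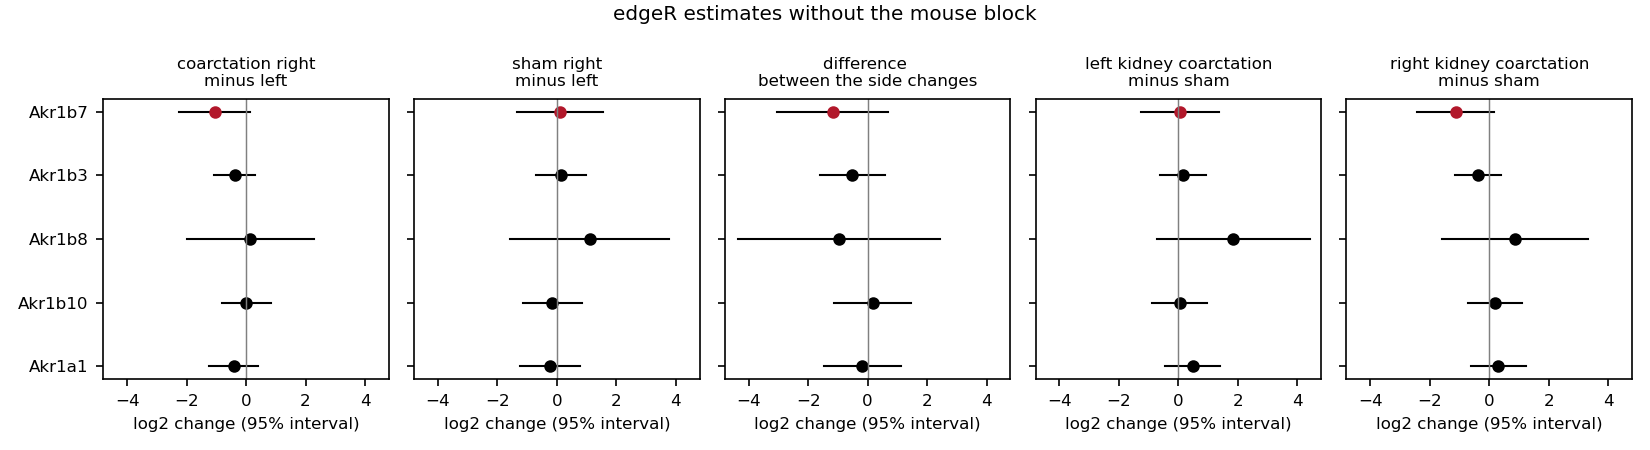
Log2 change and its 95% interval for each gene in the 5 comparisons, from edgeR without the mouse as a block over 10 libraries. Every interval includes 0, and those of Akr1b8, the least abundant gene, are the widest.

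Akr1b3, aldose reductase, was at 52.3, 80.7 and 51.8 TPM in the left and 38.5, 53.5 and 66.6 TPM in the right kidneys of coarctation mice 1, 2 and 3, and at 61.2 and 69.7 TPM on the left and 54.6 and 91.0 TPM in right kidneys of sham mice 1 and 2. The groups overlap, and the gene was lower on the right in 2 of 3 coarctation mice. The log2 change was -0.37 (SE 0.32, 95% interval -1.06 to 0.32, edgeR adjusted p = 1). In the deposited table the average transcript length of Akr1b3 ran from 695 to 1114 bases between libraries, against 985 to 1092 for Akr1b7.

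Akr1b10 is the nearest relative of Akr1b7 by coding sequence, and their log2 CPM had a Pearson r of 0.749 over the 10 libraries. Unlike Akr1b7, Akr1b10 was not lower on the right in every coarctation mouse. It was at 48.9, 62.7 and 59.4 TPM in the left kidneys and 43.7, 80.1 and 71.6 TPM in right kidneys of the coarctation mice, and at 48.0 and 82.6 TPM in the left kidneys and 35.7 and 82.5 TPM in right kidneys of the sham mice. It was higher on the right in 2 of 3 coarctation mice. The log2 change was 0.010 (SE 0.38, 95% interval -0.80 to 0.82, edgeR adjusted p = 1), and -0.0053 with the block. In the difference between the side changes it was 0.17 (SE 0.59).

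Akr1b8 varied most between libraries. In coarctation mice it was at 4.61, 22.1 and 3.84 TPM on the left and 3.80, 13.8 and 19.0 TPM on the right. In sham mice it was at 0.261 and 5.83 TPM on the left and 2.07 and 11.3 TPM on the right, where the lowest value rested on 8 estimated counts. The side changes within coarctation mice ran from -0.68 to 2.31 on the log2 TPM scale, and both sham mice were higher on the right. The edgeR log2 change was 0.14 in coarctation mice (SE 0.99, 95% interval -2.00 to 2.28) and 1.11 in sham mice (SE 1.23). The largest estimate of any member was that of Akr1b8 in left kidneys, coarctation minus sham, at 1.84 (SE 1.19, 95% interval -0.73 to 4.41, adjusted p = 0.912), and it was 0.66 to 5.51 when single libraries or mice were left out.

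Akr1a1 differed from the cluster genes in which libraries were high. It was at 1415, 594 and 1735 TPM in the left kidneys and 939, 1094 and 1226 TPM in right kidneys of the coarctation mice, and at 1379 and 849 TPM in the left kidneys and 1213 and 747 TPM in right kidneys of the sham mice. It was lower on the right in 2 of 3 coarctation mice and in 2 of 2 sham mice. The log2 change in coarctation mice was -0.41 (SE 0.38, 95% interval -1.23 to 0.41, edgeR adjusted p = 1). The 3 genes most like Akr1a1 over the 10 libraries, by Pearson correlation of log2 CPM among 9816 genes, were Bdh2, a cytosolic hydroxybutyrate dehydrogenase (r = 0.993), Ass1, which makes argininosuccinate (0.976), and Miox, which opens inositol to glucuronate in the proximal tubule (0.972). Akr1c21, another aldo-keto reductase, had r = 0.932 with it, and the 13 proximal tubule markers had 0.576 to 0.972. With Akr1b7 the same 13 markers had r between -0.727 and -0.146. In coarctation right against left 12 of the 13 estimates were lower, 0 of them called. The summed level of the markers was lower on the right in coarctation mouse 3 only. Kap, at up to 9094 TPM, weighs heavily in that sum. In coarctation mice 1, 2 and 3 Miox was at 585, 183 and 937 TPM on the left. On the right it was at 388, 446 and 632 TPM. Akr1c21 was at 499, 209 and 1096 TPM on the left and 383, 582 and 599 TPM on the right. Both genes thus moved in the direction of Akr1a1 in each coarctation mouse. The libraries share their sort and normalization, these values are a description, and the part of tubule RNA in the level of Akr1a1 was not tested.

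**Figure D5:**
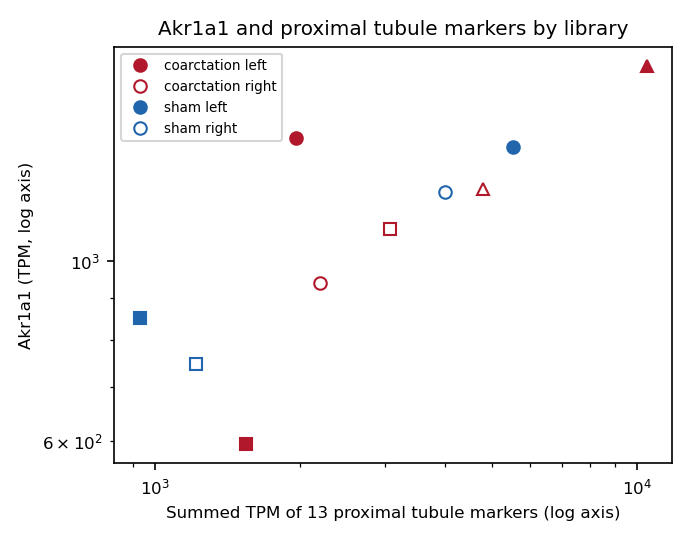
Level of Akr1a1 (TPM, log axis) against the summed TPM of 13 proximal tubule markers (log axis) in each of the 10 libraries; circles, squares and triangles are mice 1, 2 and 3 of a surgery, filled for left and open for right kidneys. The left kidney of coarctation mouse 3 is highest on both axes, at 10471 and 1735 TPM. Kap, 1 of the 13 markers, alone reached 9094 TPM in a left kidney of the coarctation group.

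The 5 genes most like Akr1b7 over the 10 libraries were Mrfap1 (r = 0.973), the deltex ubiquitin ligase gene Dtx3 (0.972), Nenf, which encodes the secreted protein neudesin (0.970), Arf1, a small GTPase of the Golgi (0.965), and the selenoprotein gene Selenoh (0.951). EYFP stood at rank 15 of 9816 genes (r = 0.928) and Ren1 at rank 258 (r = 0.815). Among the members r with Akr1b7 was 0.877 for Akr1b3, 0.749 for Akr1b10, 0.430 for Akr1b8 and -0.241 for Akr1a1. The genes most like Akr1b3 were Coq10a (0.944), Pgls, an enzyme of the pentose phosphate pathway (0.937), and Stum (0.936).

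Genes next to the cluster on chromosome 6 were not called in coarctation right against left. On one side lie Lrguk (at most 0.849 TPM, log2 change 3.91, SE 1.31, edgeR adjusted p = 0.992) and the sugar transporter gene Slc35b4 (log2 change -0.85, SE 0.48). On the other lie Bpgm, which makes 2,3-bisphosphoglycerate in red cells (-0.36, SE 0.44), and Cald1, the caldesmon gene of smooth muscle (0.068, SE 0.36). The overlapping Gm13857 had a log2 change of -0.44 (SE 0.47).

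Pathways around these enzymes gave few calls in coarctation right against left, where the median log2 change of all genes was 0.020. Of 9 genes of the polyol pathway and fructose use 0 were called (7 lower, median -0.15). Sord, which oxidizes the sorbitol that aldose reductase makes, averaged 49.8 ± 25.7 TPM on the left against 40.4 ± 12.9 TPM on the right (log2 change -0.52, SE 0.50), and the glucose transporter gene Slc2a1 changed by a log2 value of -0.83 (SE 0.64), without passing. Of 14 tested genes among the other aldo-keto reductases 0 were called (9 higher, median 0.077). Akr1c21 was the most abundant of these, at 209 to 1096 TPM, while Akr1c20 and Kcnab3, with the smallest p of the list, were below 3 TPM in every library.

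Of 20 tested genes of aldehyde and carbonyl detoxification 1 was called, with the block, and 13 were lower (median -0.11). It was Aldh7a1, an aldehyde dehydrogenase of lysine breakdown, which fell from 408 ± 232 TPM on the left to 87.0 ± 34.0 TPM on the right (log2 change -2.33, SE 0.25, edgeR adjusted p = 0.0437 with the block and 0.272 without, lower in 3 of 3 mice). Adh7 was below 1 TPM on average in every group. Of 8 tested genes of side-chain cleavage and steroid synthesis, the source of the adrenal substrate of Akr1b7, 0 were called (5 higher, median 0.058). Cyp11a1, the cleavage enzyme, reached at most 0.885 TPM, Star, which brings cholesterol to it, 1.17 TPM and Cyp11b1, which completes corticosterone, 0.367 TPM. Fdx1, the electron carrier of that enzyme, was at 57.5 to 110 TPM.

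Of 21 genes of prostaglandin synthesis and reception 0 were called (14 lower, median -0.076). Slco2a1, a prostaglandin transporter gene, averaged 26.0 ± 7.45 TPM on the left against 17.5 ± 4.53 TPM on the right (log2 change -0.73, SE 0.29, edgeR adjusted p = 1, lower in 3 of 3 mice), and Hpgd, which inactivates prostaglandins, at 0.474 ± 0.443 and 3.99 ± 4.13 TPM (log2 change 3.08, SE 1.38). Of 7 genes of glucuronate and ascorbate metabolism, around Akr1a1, 0 were called (5 lower, median -0.29). Ugp2, which makes UDP-glucose, gave a log2 estimate of -0.42 (SE 0.32), and Miox gave -0.44 (SE 0.47). Gulo, the last enzyme of ascorbate synthesis, reached at most 0.168 TPM.

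The osmotic stress list, which includes the factor Nfat5 known to drive aldose reductase, had 0 of 6 genes called (4 higher, median 0.27). Its taurine transporter gene Slc6a6 gave a log2 estimate of 0.45 (SE 0.33), and the betaine transporter gene Slc6a12 gave 1.74 (SE 1.21). Of 16 NRF2 targets 0 were called (8 higher, median 0.012). Ftl1, the ferritin light chain, averaged 12662 ± 1371 TPM on the left against 10230.0 ± 165 TPM on the right (log2 change -0.475, SE 0.28, adjusted p = 1, and 0.185 with the block, by edgeR), and Srxn1, the sulfiredoxin gene, had a log2 change of 0.81 (SE 0.51). Of 19 tested genes listed as regulators of Akr1b7 transcription 0 were called (9 higher, median -0.048). Crem, a cAMP-responsive factor, was lower on the right in 3 of 3 mice (73.6 ± 2.43 and 47.4 ± 7.31 TPM, log2 change -0.79, SE 0.46, edgeR adjusted p = 1). Nr5a1, the steroidogenic factor of the adrenal, was at 0.496 TPM or less in every library. In the other 4 comparisons 0 genes of these lists were called.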

How the data were processed

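Renin cells of 5 mice (10 kidneys) were profiled by RNA-seq after SMART-Seq v4 amplification, per the labels' protocols. The deposited table gives TPM, estimated counts and average transcript length per gene and library, per the file headers. The deposited estimated counts are length-scaled TPM, per a column of the same file, so they carry TPM back to library size. FastQC and GRCm38 (mm10) are named in the submitters' processing notes. Which aligner, quantifier, annotation and strand setting were used is not given here.

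Estimated counts were rounded and tested with edgeR 4.0.16 in R 4.3.3: filterByExpr, TMM, 4 groups in 1 quasi-likelihood fit (6 residual degrees of freedom), Benjamini-Hochberg adjustment over 18825 genes, threshold 0.05. Mouse as a block was the paired alternative; both kidneys of a mouse come from the same animal, and their deviations correlated at 0.031 to 0.127 in coarctation and 0.398 in sham mice. Other alternatives were other scalings, no filter, DESeq2 1.42.0, limma 3.58.1 (voom, and log2(TPM + 1)), the 2 groups alone, and leaving out libraries or mice. Ratios of TPM within a library do not depend on library scaling. Code was tested on simulated data. Reads carry no molecular identifiers.

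Positions and shared 31-base words came from GENCODE vM21, promoters from RefSeq. The members and gene lists were chosen with earlier results of these data known. Named were the members, Ren1, EYFP, 2 genes of smallest p per pathway list, calls, the genes most correlated with Akr1b7 (5), Akr1b3 and Akr1a1 (3 each; mean log2 CPM of at least 2, no predicted genes), and the 2 protein-coding genes on each side of the cluster. Cyp11a1, Fdx1, Gulo, Akr1c21, Kap, H2-Aa and S100a9 were named after their values were seen.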

Additional observations from a re-analysis of the deposited data

Results flagged for a closer look

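The ratio of Akr1b7 to EYFP was higher in the right than in the left kidney of 3 of 3 coarctation mice and lower in 2 of 2 sham mice, so that every mouse of one surgery moved against every mouse of the other (difference of the log2 changes 1.396, exact permutation test, two-sided, p = 0.2). The ratio to Ren1 rose in all 5 mice. EYFP itself was at 60.6 to 979 TPM. Its side changes were -2.77, -2.46 and -1.17 in coarctation mice 1, 2 and 3 and -0.10 and 0.45 in sham mice (log2 TPM). In the coarctation mice a gene with no side change would thus also rise relative to EYFP. The share of all genes with this pattern was not counted.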

How the results depend on the processing

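For Akr1b7, coarctation right against left was negative in 24 of 24 alternatives (adjusted p 0.0471 to 1), and was called only without the filter on low counts (-1.06). The mouse block moved the number of genes called there from 0 to 5, and the sham estimate of Akr1b7 from 0.11 to -0.095. It also turned Akr1b10 in coarctation mice to -0.0053 and ended no call. Other turns of sign were in sham kidneys for Akr1b7 (limma-voom -0.086, log2 TPM -0.055), in the difference of side changes for Akr1a1 (limma-voom 0.012, log2 TPM 0.11) and in left kidneys between surgeries. There Akr1b7 was at -0.031 with upper-quartile factors, -0.13 with library totals and -0.021 on log2 TPM, Akr1b3 at -0.079 (totals) and -0.11 (log2 TPM), and Akr1b10 at -0.069, -0.18 and -0.15 in the same order and -0.011 from 2 groups alone. The cause was not tested. For coarctation right minus left, leaving out each library or each mouse gave -1.30 to -0.65 for Akr1b7, -0.65 to -0.042 for Akr1b3, -0.73 to 1.36 for Akr1b8, -0.073 to 0.27 for Akr1b10, -0.64 to 0.025 for Akr1a1. For sham right minus left, leaving out each library or each mouse gave -1.53 to 1.19 for Akr1b7, -0.45 to 0.55 for Akr1b3, -0.82 to 4.78 for Akr1b8, -1.07 to 0.40 for Akr1b10, -0.48 to 0.060 for Akr1a1. For difference between the side changes, leaving out each library or each mouse gave -2.24 to 0.47 for Akr1b7, -0.93 to 0.071 for Akr1b3, -4.64 to 0.96 for Akr1b8, -0.39 to 1.08 for Akr1b10, -0.47 to 0.25 for Akr1a1. For left kidney coarctation minus sham, leaving out each library or each mouse gave -0.56 to 1.12 for Akr1b7, -0.094 to 0.34 for Akr1b3, 0.66 to 5.51 for Akr1b8, -0.35 to 0.59 for Akr1b10, 0.088 to 0.80 for Akr1a1. For right kidney coarctation minus sham, leaving out each library or each mouse gave -1.87 to 0.52 for Akr1b7, -0.77 to 0.23 for Akr1b3, 0.083 to 2.80 for Akr1b8, -0.34 to 1.13 for Akr1b10, 0.13 to 0.57 for Akr1a1. Where this left 1 sham library in a group, it was assumed to vary like the other groups. The Akr1b7 to Ren1 difference was 0.97 to 1.02 without single mice, unchanged with CPM by construction, and 1.40 with EYFP. Without the filter 112, 19, 63, 67 and 70 genes were called in the 5 comparisons in the order given, and by DESeq2 86, 24, 37, 49 and 45, against 0. limma on log2 TPM called 2 in sham kidneys and 3 in left kidneys. Without the right kidney of coarctation mouse 3, 3 genes were called in coarctation mice and 3 in right kidneys, and without that mouse 4, 1 in the difference and 2 in right kidneys. On the CPM per kilobase scale 8 of 20 group levels moved by over 1 SD (Akr1b7 in coarctation left kidneys 7354). Groups of 2 and 3 mice, and 8 counts for Akr1b8 in 1 library, limit precision.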
